A study of Caenorhabditis elegans with 12 samples.

Results

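The cytosolic ribosomal protein genes are the 76 of 18467 genes in the count table whose symbol begins with rps- or rpl- and a number. By these names alone, 31 were counted with the small and 45 with the large ribosomal subunit. Whole wild-type Caenorhabditis elegans of strain N2 were fed RNAi bacteria against vha-6, vha-16 or vha-19, or control RNAi bacteria, with 3 polyA-selected RNA libraries per group and 12 in all. The 3 targets are subunits of the V-ATPase, the pump that acidifies lysosomes. In each vha group the food held 25% bacteria of the target and 75% control bacteria. Feeding began at the first larval stage, and worms of all groups were collected at the L4 or young adult stage after 2.5 days at 20 °C. The labels name no mutation or transgene in any group. The labels do not say whether the 3 libraries of a group came from separate cultures, so a p-value speaks only for the spread among these libraries, which may be technical.

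Cytosolic ribosomes translate the messages of the nuclear genome. Each ribosome needs its proteins in equal number, and in animals most of these proteins are made from abundant, short messages that are controlled together. A few are encoded by a pair of related genes, or paralogues, which can be used to different degrees in different tissues. In C. elegans the X chromosome is largely silent in the germline, and mutants of rpl-11.1 are known for a germline that fails to proliferate.

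Gene counts per library lay between 21981854 and 22553227. The targeted transcripts were read first as a check of the labels, in CPM, counts per 1000000 gene counts, after TMM scaling (trimmed mean of M-values). Under its own RNAi vha-6 stood at 93.7 ± 4.68 CPM, against 401 ± 4.78 CPM in control worms. Likewise vha-16 stood at 269 ± 7.06 CPM under its own RNAi, against 441 ± 12.1 CPM in control, and vha-19 at 217 ± 10.2 CPM, against 469.5 ± 6.82 CPM in control (SD, n = 3 each). Each target was lowest on its own RNAi, but vha-6 was also low on vha-16 and vha-19 RNAi (127 and 116 CPM), vha-16 stood at 379 CPM on vha-19 RNAi and vha-19 at 318 CPM on vha-16 RNAi. On vha-6 RNAi, vha-16 and vha-19 stood at 871 and 782 CPM. TMM scales each library by a trimmed mean of its gene-wise changes, which need not place the median gene at no change. Its mean factors were 1.05 on vha-6 RNAi, 1.10 on vha-16 RNAi, 1.12 on vha-19 RNAi and 0.770 in control. Vitellogenins, the yolk proteins, held 0.961% of gene counts on vha-6 RNAi, 0.580% on vha-16 RNAi and 0.484% on vha-19 RNAi, against 8.03% in control. In whole worms, fewer cells of a type and less RNA per cell cannot be told apart.

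The ribosomal protein genes together held a nearly even share of gene counts in all 4 groups. The 76 genes took 8.74 ± 0.0361% of gene counts on vha-6 RNAi, 9.15 ± 0.181% on vha-16 RNAi and 8.64 ± 0.171% on vha-19 RNAi, against 8.80 ± 0.176% in control (SD, n = 3 each). The libraries ran from 8.71 to 8.78% on vha-6 RNAi, from 8.95 to 9.31% on vha-16 RNAi and from 8.51 to 8.84% on vha-19 RNAi, against 8.67 to 8.998% in control. Each vha group overlapped the control libraries. With vitellogenin counts left out of the total, the shares were 8.82%, 9.20% and 8.69% with vha-6, vha-16 and vha-19 knockdown, against 9.56% in control. After TMM scaling the summed level was 83287 ± 359, 82896 ± 1690 and 77088 ± 1470 CPM with vha-6, vha-16 and vha-19 knockdown, against 114300 ± 3140 CPM in control, and no vha library reached a control library.

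**Figure D1:**
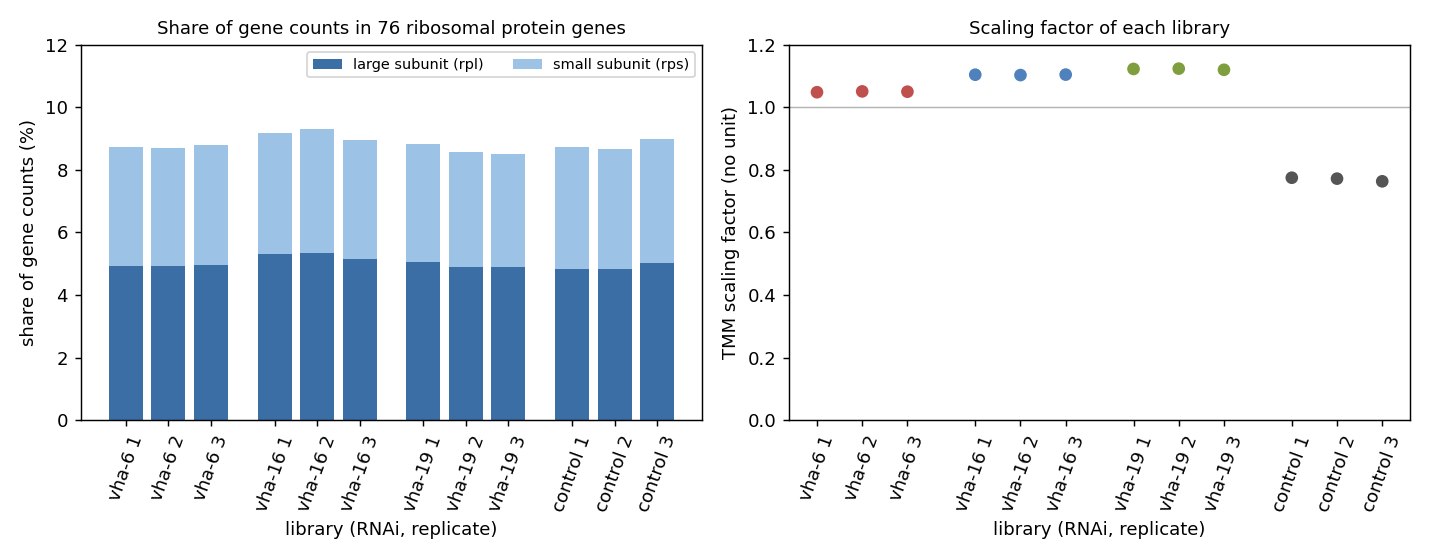
Left, share of gene counts (%) in the 45 large-subunit (dark) and 31 small-subunit (light) ribosomal protein genes, 1 bar per library; right, the TMM factor of each library (no unit), coloured by RNAi group. The shares lie between 8.51 and 9.31% in all 12 libraries, whereas the factors average 0.770 in control and 1.05 to 1.12 in the vha groups.

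The balance between subunits differed from control. The ratio of large-subunit to small-subunit counts, which no library scaling can alter, was 1.30 ± 0.00366 on vha-6 RNAi, 1.35 ± 0.00885 on vha-16 RNAi and 1.34 ± 0.00828 on vha-19 RNAi, against 1.25 ± 0.00571 in control. Every vha library stood above every control library. The large-subunit genes held 4.94%, 5.26% and 4.95% of gene counts with vha-6, vha-16 and vha-19 knockdown, against 4.89% in control. The small-subunit genes held 3.80%, 3.89% and 3.70%, against 3.91% in control.

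All 76 genes passed the filter on low counts, and with TMM scaling the same 72 were lower and the same 4 higher than control under each of the 3 RNAi treatments, a split that did not hold with library totals. The 4 higher genes were rpl-11.2, rpl-24.2, rpl-25.1 and rpl-42, all counted with the large subunit by name. The 3 comparisons share the same control libraries. The calls come from edgeR's quasi-likelihood test at a Benjamini-Hochberg adjusted p under 0.05 over the 17043 genes tested. Most genes of the genome were called in these comparisons, so a call in itself was common. Of all genes tested, 41.4% were called lower and 47.9% higher on vha-6 RNAi, 41.9% lower and 48% higher on vha-16 RNAi, and 42.2% lower and 47.7% higher on vha-19 RNAi. For all 76 members the libraries of the vha group did not overlap those of control, as was the case for 41.5% of all genes in the lower and 48.1% in the higher direction on vha-6 RNAi, 41.9% and 48.1% on vha-16 RNAi, and 42.2% and 47.7% on vha-19 RNAi.

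How far the family moved depended on the scaling. With TMM the median log2 fold change of the 76 genes over control was -0.46 on vha-6 RNAi, -0.46 on vha-16 RNAi and -0.58 on vha-19 RNAi, that is 72.6%, 72.8% and 66.95% of the control level. The median over all genes tested was 0.24, 0.20 and 0.19. With libraries scaled by their total gene counts instead, the members' medians were -0.015, 0.062 and -0.036, and those of all genes were 0.68, 0.72 and 0.73. Set against the median gene, the family lay 0.70 lower on the log2 scale on vha-6 RNAi, 0.66 lower on vha-16 RNAi and 0.77 lower on vha-19 RNAi with TMM, and the same to 2 decimals on vha-6 and vha-16 RNAi with totals (members minus all genes -0.70, -0.66 and -0.76). Between 34.5% and 37% of tested genes had a fold change below the members' median. The gap depended on the filter and was smaller among genes averaging at least 5 CPM. There the members' medians were -0.26, -0.27 and -0.40 with TMM, and those of all genes 0.013, 0.035 and 0.0051.

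With library totals the members split. On vha-6 RNAi 21 were called lower and 12 higher (32.8% and 58.1% of all genes), on vha-16 RNAi 13 lower and 36 higher (31.8% and 59.4%), and on vha-19 RNAi 31 lower and 11 higher (31.7% and 59.6%). Of the 76 members, 9 were lower in all 3 comparisons under totals. These were rpl-11.1, rpl-25.2, rpl-28, rps-12, rps-15, rps-18, rps-23, rps-24 and rps-28. Another 8 were higher in all 3, namely rpl-7, rpl-10, rpl-11.2, rpl-24.1, rpl-24.2, rpl-25.1, rpl-42 and rps-20. The other 59 had no call common to the 3 comparisons.

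**Figure D2:**
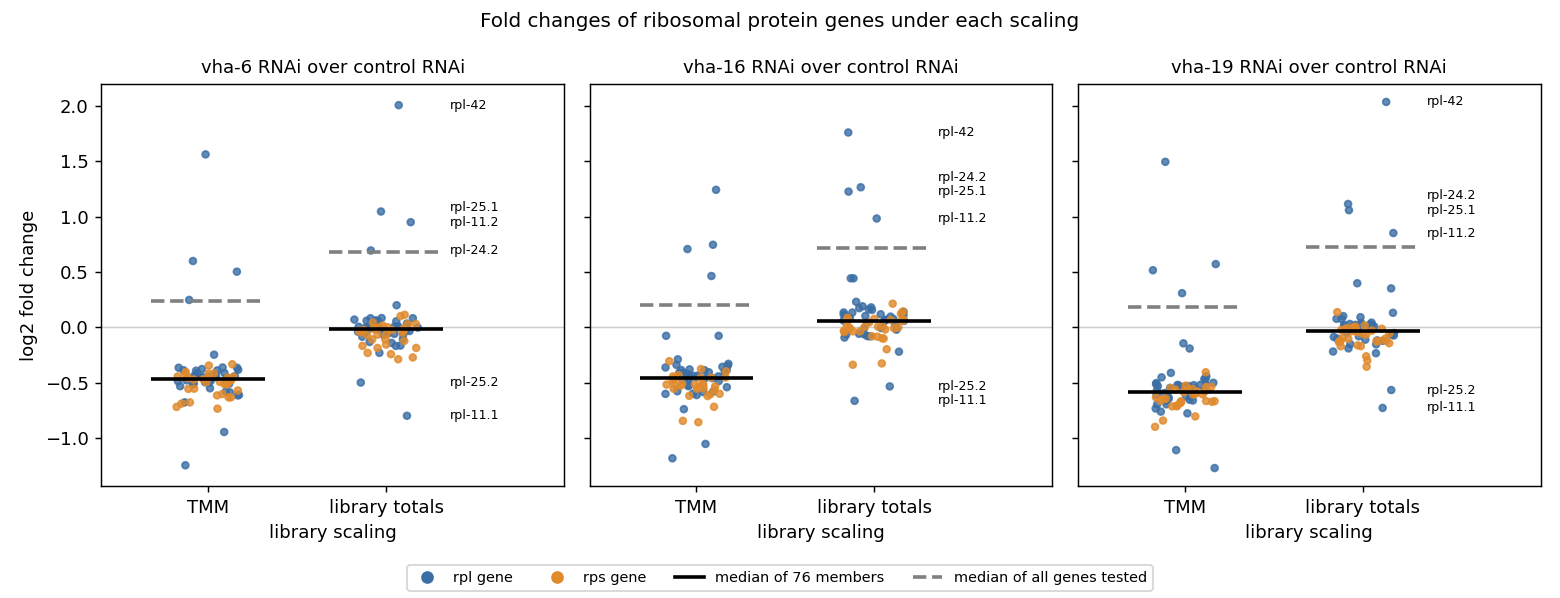
Log2 fold change of each of the 76 ribosomal protein genes over control (points, rpl blue and rps orange), 1 panel per RNAi treatment, with TMM scaling and with library totals; black bars mark the members' median and dashed grey bars the median of all 17043 genes tested. Changing the scaling moves members and all genes together, so the members' medians go to between -0.036 and 0.062 with totals while rpl-11.1, rpl-25.2, rpl-11.2, rpl-25.1, rpl-24.2 and rpl-42 stay apart from the rest.

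Differences between members within a comparison do not depend on the scaling, and most members kept close together. On vha-6 RNAi 64 of 76 genes lay within 0.2 of the family median on the log2 scale, on vha-16 RNAi 64 and on vha-19 RNAi 65. The SD of the members' log2 fold changes was 0.33, 0.34 and 0.35 in these comparisons, against 1.82, 1.96 and 1.96 over all genes tested. The latter include genes of lower counts than most members. The small-subunit genes were tighter, with SDs of 0.10, 0.12 and 0.098, and the large-subunit genes wider, with SDs of 0.41, 0.42 and 0.44. The 4 genes rpl-11.2, rpl-24.2, rpl-25.1 and rpl-42 stood more than 0.5 above the family median under each treatment. More than 0.5 below it stood rpl-11.1 under each treatment and rpl-25.2 on vha-16 and vha-19 RNAi. With TMM the median log2 fold change of the large-subunit genes was -0.45, -0.43 and -0.54 with vha-6, vha-16 and vha-19 knockdown, and that of the small-subunit genes -0.49, -0.52 and -0.63. With library totals they were -0.0055, 0.085 and 0.008 for the large subunit and -0.044, 0.0023 and -0.089 for the small subunit.

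**Figure D3:**
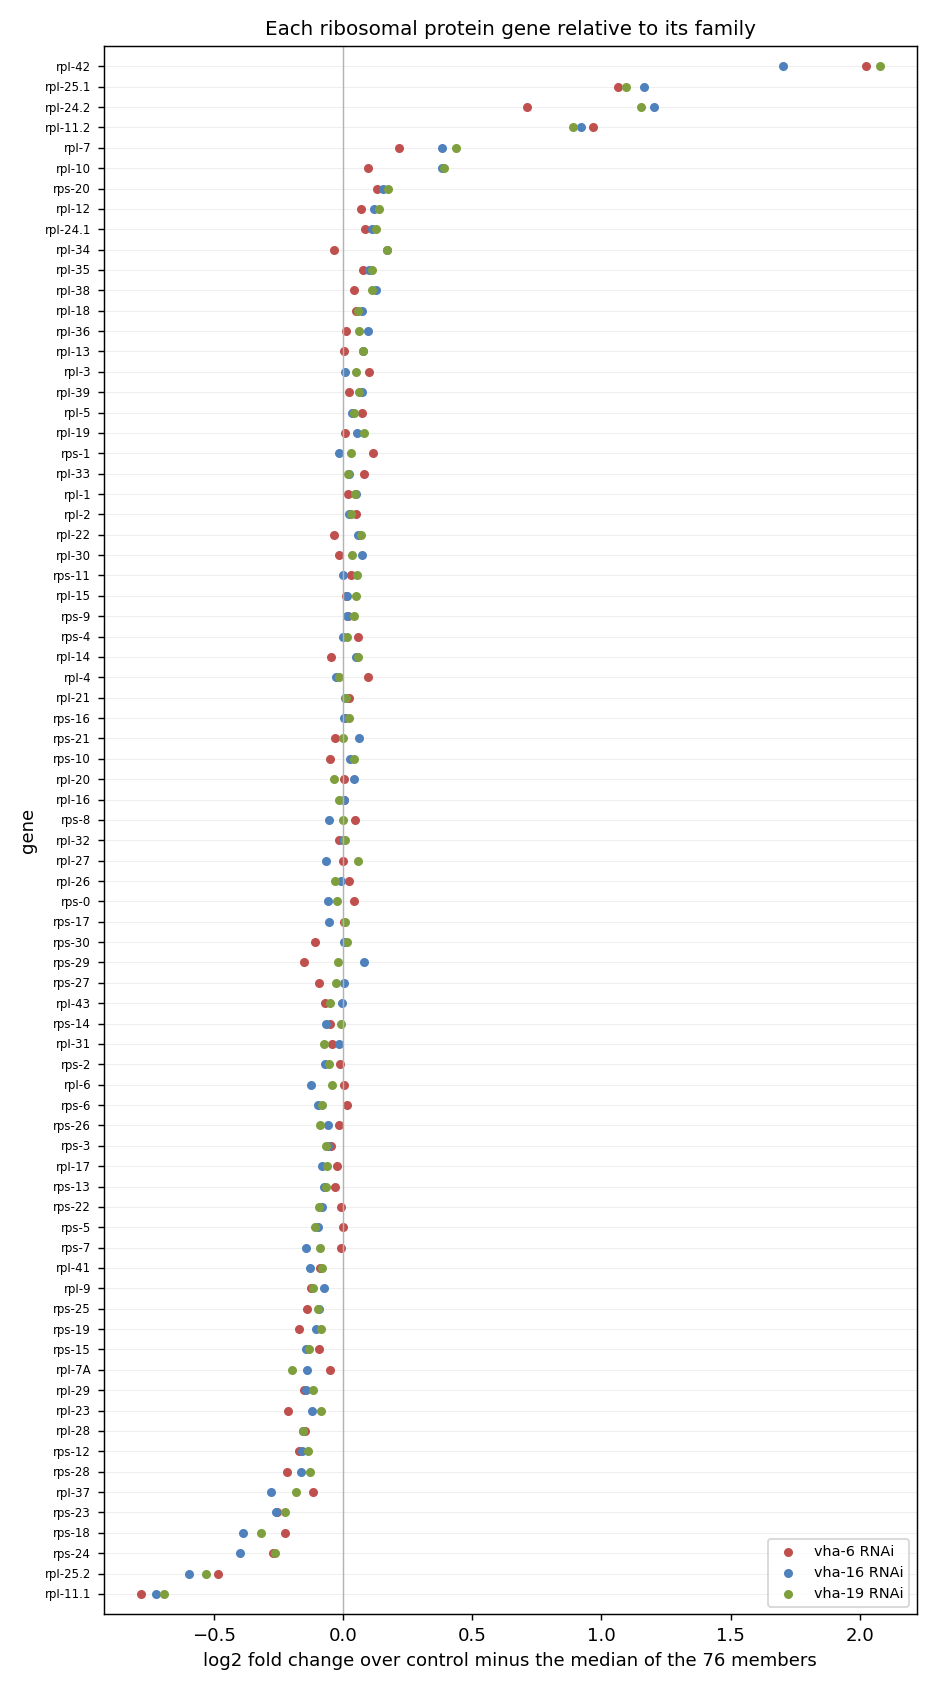
Log2 fold change over control of each ribosomal protein gene minus the median of the 76 (horizontal axis, log2 units), for vha-6 (red), vha-16 (blue) and vha-19 RNAi (green), genes ordered by their mean. Most genes sit within 0.2 of 0, with rpl-42, rpl-25.1, rpl-24.2 and rpl-11.2 at the top and rpl-25.2 and rpl-11.1 at the bottom.

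Apart from rpl-42, the largest departures from the family median were in paralogue pairs. Large-subunit protein L11, which sits beside the 5S RNA in the ribosome, is encoded by rpl-11.1 (WBGene00004422, chromosome V, 3585312 to 3586064, minus strand, build WBcel235) and rpl-11.2 (WBGene00004423, chromosome X, 2241738 to 2242618, minus strand). The level of rpl-11.1 was 605, 589.6 and 595 CPM on vha-6 RNAi, 636, 617 and 615 CPM on vha-16 RNAi and 595, 587 and 576 CPM on vha-19 RNAi, against 1399, 1381 and 1460 CPM in control. All 9 vha libraries stood far below the controls, and the vha groups lay close to each other. This was 42.2% of control on vha-6 RNAi, a log2 fold change of -1.25 (SE 0.031, edgeR adjusted p = 4.62e-28), 44.1% on vha-16 RNAi (-1.18) and 41.5% on vha-19 RNAi (-1.27), and rpl-11.1 was the lowest member in each comparison. With library totals the changes were -0.80, -0.66 and -0.73.

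Its paralogue went the other way. The level of rpl-11.2 was 742, 764 and 745 CPM on vha-6 RNAi, 728.5, 749.6 and 713 CPM on vha-16 RNAi and 678, 644 and 646 CPM on vha-19 RNAi, against 512, 506 and 569 CPM in control. No vha library fell within the control range. The log2 fold changes were 0.50 (SE 0.0365, adjusted p = 8.17e-15), 0.47 (adjusted p = 6.67e-14) and 0.31 (adjusted p = 1.43e-09) by edgeR, and 0.95, 0.98 and 0.85 with totals. The share of rpl-11.1 in the pair's counts was 44.3 ± 0.694% on vha-6 RNAi, 46.0 ± 0.768% on vha-16 RNAi and 47.2 ± 0.48% on vha-19 RNAi, against 72.8 ± 0.714% in control (SD, n = 3 each). The major gene of the pair was thus rpl-11.2 in all 9 vha libraries and rpl-11.1 in all 3 control libraries. Summed over both genes, the pair stood at 1347, 1353 and 1242 CPM with vha-6, vha-16 and vha-19 knockdown, against 1942 CPM in control, with TMM. Scaled by library totals it stood at 1413, 1493 and 1393 CPM, against 1495 CPM in control.

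The balance within the pair also differed for rpl-25.1 (WBGene00004438, chromosome X, 4715178 to 4715796, plus strand) and rpl-25.2 (WBGene00004439, chromosome I, 8329062 to 8329647, minus strand). RefSeq names rpl-25.2 rpl-23A.2, after L23A, a protein near the exit of the ribosome's peptide tunnel. The level of rpl-25.1 was 525, 507 and 516 CPM on vha-6 RNAi, 549, 563.5 and 555 CPM on vha-16 RNAi and 486, 484 and 491 CPM on vha-19 RNAi, against 335, 337 and 348 CPM in control. Every vha library was above every control library, with vha-16 RNAi highest. Its log2 fold changes were 0.60 (SE 0.0309), 0.71 (SE 0.0308) and 0.52 (SE 0.0309), with edgeR adjusted p = 5.7e-19, 4e-21 and 3.6e-17.

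The level of rpl-25.2 was 762.5, 754 and 741 CPM on vha-6 RNAi, 703, 703 and 689.5 CPM on vha-16 RNAi and 693, 661 and 662 CPM on vha-19 RNAi, against 1420, 1450 and 1475 CPM in control. All vha libraries stood far below control, at 51.97%, 48.2% and 46.4% of its level, with edgeR log2 fold changes of -0.94, -1.05 and -1.11 (SE 0.0306, 0.0306 and 0.0307). The share of rpl-25.1 in the pair was 40.7 ± 0.429% on vha-6 RNAi, 44.3 ± 0.408% on vha-16 RNAi and 42.02 ± 0.726% on vha-19 RNAi, against 19.02 ± 0.13% in control. With TMM the pair summed to 1268, 1254 and 1159 CPM with vha-6, vha-16 and vha-19 knockdown, against 1788 CPM in control. With totals it summed to 1331, 1384 and 1299 CPM, against 1376 CPM in control.

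The third pair is unequal in level and in role. RefSeq names rpl-24.2 (WBGene00004437, chromosome I, 9669415 to 9670098, plus strand) rsl-24D1. Its yeast counterpart Rlp24 is an assembly factor of the large subunit, later replaced by protein L24, which rpl-24.1 encodes (WBGene00004436, chromosome I, 4585115 to 4586176, plus strand). The level of rpl-24.2 was 77.3, 78.8 and 77.0 CPM on vha-6 RNAi, 113, 107 and 109 CPM on vha-16 RNAi and 102, 93.6 and 96.4 CPM on vha-19 RNAi, against 65.9, 61.7 and 68.6 CPM in control. All vha libraries lay above control, vha-6 RNAi least so. Its log2 fold changes were 0.25 (SE 0.0434, edgeR adjusted p = 3.13e-06), 0.75 (adjusted p = 6.29e-18) and 0.57 (adjusted p = 1.33e-14).

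The level of rpl-24.1 was 1537, 1544 and 1496 CPM on vha-6 RNAi, 1575, 1579 and 1521 CPM on vha-16 RNAi and 1490, 1436 and 1420 CPM on vha-19 RNAi, against 1927, 1946 and 2065 CPM in control. It was below control in every vha library with TMM (log2 fold changes -0.38, -0.34 and -0.45) and called higher with library totals (0.072, 0.17 and 0.093).

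The ratio within a pair is free of library scaling and was tested over samples. The log2 ratio of rpl-11.1 over rpl-11.2 was -0.33 ± 0.0406 on vha-6 RNAi, -0.23 ± 0.0446 on vha-16 RNAi and -0.16 ± 0.0278 on vha-19 RNAi, against 1.42 ± 0.0518 in control. The differences from control were -1.75 (SE 0.038), -1.65 (SE 0.0395) and -1.58 (SE 0.0339). For rpl-25.1 over rpl-25.2 they were 1.54 (SE 0.0164), 1.76 (SE 0.0155) and 1.63 (SE 0.0258), and for rpl-24.1 over rpl-24.2 they were -0.62 (SE 0.0334), -1.09 (SE 0.0417) and -1.02 (SE 0.0383). In all 9 comparisons the groups did not overlap, and a two-sided exact permutation test gave p = 0.1 (0.1 adjusted over the 9), the smallest that 3 against 3 allows. An exact permutation test over the 4 groups gave p = 6.49e-05 for rpl-11 and for rpl-25, the smallest it can give (9.74e-05 adjusted over the 3 pairs), and p = 0.000195 for rpl-24. As paralogues, the genes of a pair may share reads, and how reads that fit more than 1 place were handled could shift counts between them. Reads set aside as not unique were 9.50%, 7.64% and 8.08% of reads in the table with vha-6, vha-16 and vha-19 knockdown, against 15.3% in control, and their part in these ratios was not tested.

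**Figure D4:**
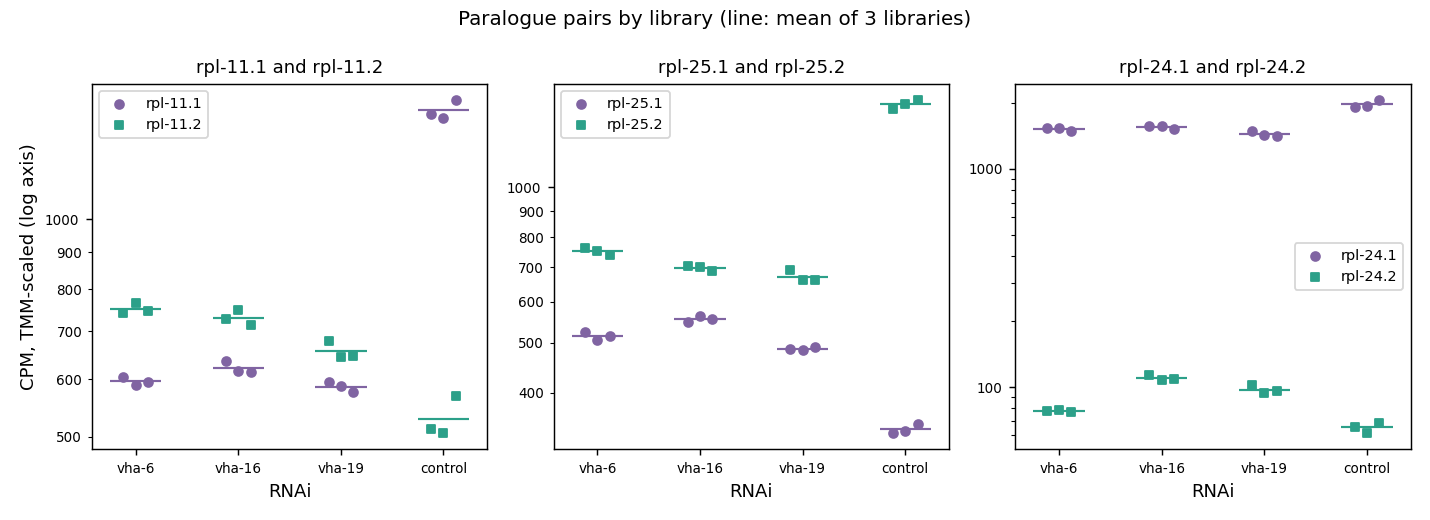
Level of each paralogue in each library (CPM, TMM-scaled, log axis) for rpl-11, rpl-25 and rpl-24, by RNAi group; points are libraries and lines the mean of 3. In the vha groups rpl-11.1 lies below rpl-11.2 and in control above it, rpl-25.1 and rpl-25.2 draw together in the vha groups, and rpl-24.2 stays far below rpl-24.1 in every library.

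Markers of the germline also differed from control. All 36 oocyte and germline markers examined were called lower than control under each treatment with TMM. Their median log2 fold changes were -2.83, -3.06 and -3.02. With library totals 33, 35 and 34 of them were called lower and 2, 0 and 0 higher. Their summed level was 4444 to 4477 CPM on vha-6 RNAi, 3846 to 4032 CPM on vha-16 RNAi and 4036 to 4150 CPM on vha-19 RNAi, against 28700 to 29650 CPM in control, and none was at 0. Of 27 sperm markers, 26 were higher and 1 lower under each treatment, with sums of 1226 to 1263, 1162 to 1191 and 1221 to 1257 CPM, against 476.7 to 495 CPM in control. The part of the tissue markers in the ribosomal protein values was not tested. With TMM the somatic markers stood as follows. Of 21 intestine markers 16 were higher and 5 lower on vha-6 RNAi, 9 higher and 11 lower on vha-16 RNAi and 9 higher and 10 lower on vha-19 RNAi. The intestine list includes vha-6, itself an RNAi target. That gene stood at 93.7, 127 and 116 CPM with vha-6, vha-16 and vha-19 knockdown, against 401 CPM in control. With library totals the intestine counts were 16 higher and 4 lower, 12 higher and 8 lower, and 12 higher and 8 lower. Of 32 body-wall muscle markers 21 were higher and 5 lower on vha-6 RNAi, 3 higher and 25 lower on vha-16 RNAi and 4 higher and 23 lower on vha-19 RNAi. With library totals muscle markers were 27 higher and 2 lower, 15 higher and 15 lower, and 15 higher and 12 lower, so the balance of muscle and of intestine markers on vha-16 and vha-19 RNAi depended on the scaling. The intestine medians there were -0.088 and -0.013 with TMM and 0.43 and 0.53 with totals.

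The 2 members on chromosome X were rpl-11.2 and rpl-25.1, both among the 4 higher genes, while the other member of each pair lies on an autosome. The chromosomes were compared after these values were seen. Of the 2362 tested genes on X, 55% were called higher and 30.1% lower on vha-6 RNAi with TMM, against 46.7% and 43.3% of the 14560 on chromosomes I to V. The shares were 55.6% and 31.6% on X on vha-16 RNAi, against 46.7% and 43.6%, and 54.1% and 32% on vha-19 RNAi, against 46.6% and 44%. The remaining 74 members lie on chromosomes I (21), II (10), III (18), IV (17) and V (8).

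The fourth gene above control, rpl-42 (WBGene00004455, chromosome II, 11092713 to 11094022, plus strand), had the highest fold change and the lowest level of the family. It averaged 4.62 RPKM over the 12 libraries, when the next lowest member, rpl-37, averaged 61.0 RPKM. Its level was 3.97, 4.47 and 4.51 CPM on vha-6 RNAi, 3.70, 3.10 and 3.58 CPM on vha-16 RNAi and 4.04, 4.64 and 3.69 CPM on vha-19 RNAi, against 1.52, 1.77 and 1.07 CPM in control. The groups did not overlap, but the values rest on 93, 105 and 106 counts, on 92, 77 and 89 counts and on 102, 117 and 93 counts in the vha groups, against 26, 30 and 18 counts in control. The log2 fold changes were 1.56 (SE 0.176, edgeR adjusted p = 5.26e-10), 1.24 (SE 0.182, adjusted p = 1.37e-07) and 1.5 (SE 0.175, adjusted p = 1.31e-09).

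Other members stood somewhat apart from the family. With TMM, rpl-7, which encodes large-subunit protein L7, averaged 2402 ± 4.05 CPM on vha-6 RNAi, 2703 ± 31.2 CPM on vha-16 RNAi and 2578 ± 22.9 CPM on vha-19 RNAi, against 2847 ± 29.7 CPM in control (SD, n = 3 each). Its log2 fold changes were -0.25, -0.075 and -0.14 with TMM, and 0.20, 0.44 and 0.40 with library totals, where it was called higher. Without the third vha-16 library, its change on vha-16 RNAi was no longer called (-0.063, edgeR adjusted p = 0.0639), nor was it with no filter on low counts (0.114) or in a fit to the compared groups (0.125). Its change on vha-6 RNAi lost its call when genes averaging under 5 CPM were removed (0.12). For rpl-10, whose protein L10 lies at the tRNA sites, the changes were -0.36, -0.075 and -0.19 with TMM and 0.084, 0.44 and 0.35 with totals. The small-subunit gene closest to these was rps-20, at -0.33, -0.30 and -0.40 with TMM and 0.12, 0.22 and 0.14 with totals.

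At the low end of the small subunit were rps-24, rps-18 and rps-23, the last encoding a protein of the decoding centre. The log2 fold changes of rps-24 were -0.73 (SE 0.0326), -0.86 (SE 0.0327) and -0.84 (SE 0.0327) with vha-6, vha-16 and vha-19 knockdown, at means of 809, 743 and 751 CPM, against 1345 CPM in control. Those of rps-18 were -0.69, -0.84 and -0.90, at 1194, 1072 and 1033 CPM, against 1924 CPM in control. Those of rps-23 were -0.72, -0.72 and -0.80. With totals all 9 changes were smaller and still called lower, between -0.20 and -0.35. Exons of rps-18 overlap the antisense gene hhat-2 by 50 bases and those of rpl-7 overlap F53G12.9 by 6, and whether the counting used strand is not given in the sources used here.

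**Figure D5:**
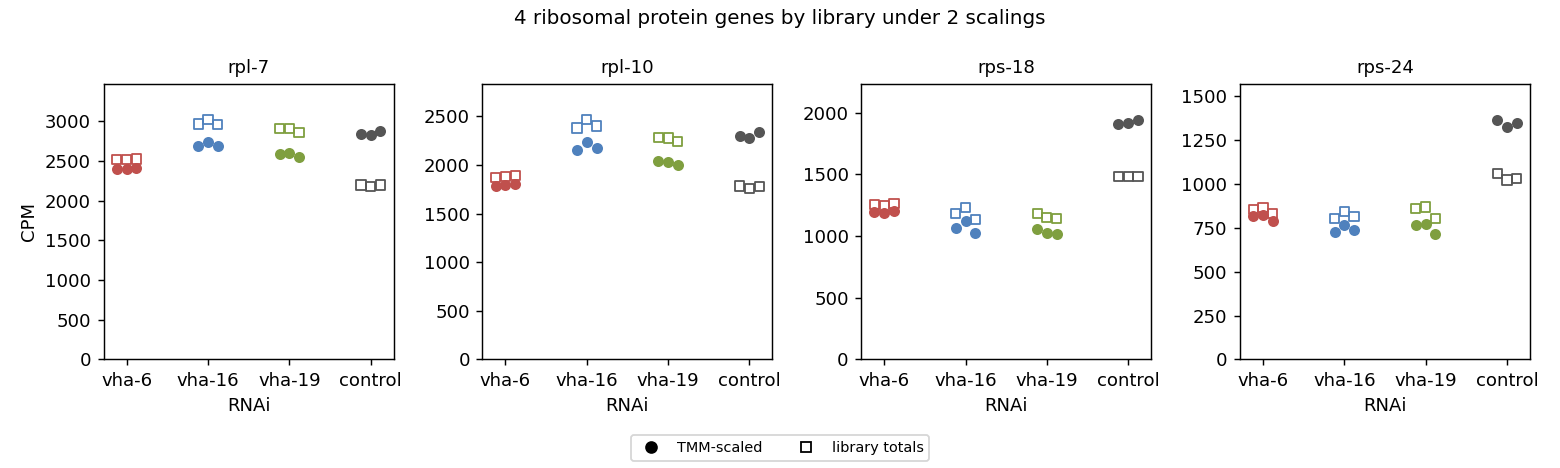
CPM of rpl-7, rpl-10, rps-18 and rps-24 in each library by RNAi group, with TMM scaling (filled circles) and with library totals (open squares). Under totals the control values of rpl-7 and rpl-10 lie below all vha values, and those of rps-18 and rps-24 stay above them.

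The most abundant messages followed the family. By counts these were rpl-3 and rpl-4, which encode large-subunit proteins near the catalytic core and the peptide tunnel, and rps-0, which encodes a small-subunit protein. The mean of rpl-3 was 3148 ± 2.82 CPM on vha-6 RNAi, 2959 ± 65.2 CPM on vha-16 RNAi and 2803 ± 53.3 CPM on vha-19 RNAi, against 4044 ± 54.1 CPM in control. Its log2 fold changes were -0.36, -0.45 and -0.53 with TMM, and 0.086, 0.069 and 0.014 with totals. Those of rpl-4 were -0.36, -0.48 and -0.59 with TMM, and those of rps-0 were -0.42, -0.52 and -0.60. With totals rpl-4 stood at 0.083, 0.035 and -0.050, and rps-0 at 0.030, 0.0023 and -0.060. Per length, the highest members over the 12 libraries were rps-8 at 3352 RPKM, rpl-7 at 3278 RPKM and rps-0 at 3051 RPKM. Apart from rpl-42 the lowest was rpl-37, at 15.8 ± 0.908, 14.1 ± 0.991 and 13.9 ± 0.828 CPM with vha-6, vha-16 and vha-19 knockdown, against 23.6 ± 2.3 CPM in control. Its log2 fold changes were -0.58, -0.74 and -0.76 with TMM and -0.13, -0.22 and -0.22 with totals, where the first was not called (edgeR adjusted p = 0.0881). RefSeq names rpl-37 rpl-37.2 and the gene W01D2.1 rpl-37.1. W01D2.1 stood at 311, 314 and 289.5 CPM, against 472.5 CPM in control, and reads may be split between these near copies, so both levels are uncertain.

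Between the vha treatments the family differed by small amounts. On vha-6 RNAi compared with vha-16 RNAi, 14 members were higher and 15 lower (31.2% and 31.6% of all genes), at a median log2 fold change of -0.003. With library totals 1 was higher and 41 lower (25.8% and 36.7% of all genes), and with upper-quartile scaling 32 were higher and 5 lower, where 6248 and 4767 of the 17043 genes were. Without the second vha-16 library 27 were higher and 5 lower, and without the first vha-16 library 21 were higher and 7 lower. Of all genes, 5440 were higher and 4947 lower without the second, and 5568 and 4866 without the first. The members at the ends were rpl-42 (0.32, SE 0.13, edgeR adjusted p = 0.0322) and rpl-24.2 (-0.50, SE 0.0395, adjusted p = 2.55e-13). Next to them came rpl-37 (0.16, adjusted p = 0.0629, not called), rps-18 (0.16), rps-29 (-0.24) and rpl-10 (-0.29). The rpl-42 call was lost with library totals (edgeR adjusted p = 0.0998) and with totals without vitellogenins (0.0926). It was also lost without the second or the third vha-6 library or the second vha-16 library (0.0892, 0.1 and 0.0979).

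On vha-6 RNAi compared with vha-19 RNAi, 50 members were higher and 4 lower with TMM (29% and 29.5% of all genes), at a median of 0.097 where that of all genes was 0.0028. With library totals the counts were 18 higher and 11 lower, at a median of 0.00090, where 21.6% and 37.5% of all genes were called higher and lower. The highest were rpl-7A (0.26, SE 0.0373), rpl-4 (0.23, SE 0.0316) and rps-5 (0.22, SE 0.0377). The lowest were rpl-24.2 (-0.32, SE 0.0398), rpl-10 (-0.17, SE 0.0288) and rpl-7 (-0.10, SE 0.0283). All 6 were called, by edgeR, in the same direction with totals, and with the upper quartile the rpl-7 call was lost (-0.049, adjusted p = 0.156).

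On vha-16 RNAi compared with vha-19 RNAi, 56 members were higher and 0 lower (9.81% and 7.56% of all genes), at a median of 0.11 where that of all genes was 0.0046. By unadjusted p under 0.05, edgeR had 66 higher and 0 lower, but the share of all genes at that threshold was not counted. At an adjusted p under 0.05, limma-voom called 62 higher and 0 lower, where it called 1704 and 1279 of the 17043 genes. With DESeq2 size factors 41 were higher and 0 lower both in edgeR and in the DESeq2 test. Of all genes, 1408 were higher and 1531 lower in that edgeR fit, and 1063 and 1116 in the DESeq2 test. The members' changes lay close together, with an SD of 0.060 against 0.31 over all genes, which include genes of lower counts. Members that move together are not separate pieces of evidence. Their median log2 CPM with TMM ran from 9.82 to 9.89 over the vha-16 libraries and from 9.67 to 9.79 over the vha-19 libraries. At the median the vha-16 level was 107.9% of the vha-19 level. With library totals 39 were higher and 0 lower (7.89% and 9.71% of all genes). Without the first or the second vha-16 library 21 and 20 members were called higher, and without the second or the third vha-19 library 23 and 18. Of all genes, 1105 and 1229 were called higher in the former fits and 1099 and 1138 in the latter. The highest were rps-29 (0.22, SE 0.0444), rpl-20 (0.20, SE 0.036) and rpl-25.1 (0.19, SE 0.03). At the low end were rpl-42 (-0.25, SE 0.129, edgeR adjusted p = 0.198), rps-24 (-0.015, adjusted p = 0.821) and rpl-27 (-0.0024, adjusted p = 0.982), none of them called.

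Ribosomal proteins outside the naming rule did likewise. The stalk proteins rla-0, rla-1 and rla-2 and the ubiquitin fusions ubl-1 and ubq-2 were lower in 5 of 5 under each treatment with TMM, at medians of -0.58, -0.52 and -0.59. With totals those medians were -0.14, -0.0042 and -0.042. A further 4 genes that RefSeq alone names as ribosomal proteins, Y37E3.8, W01D2.1, F54D7.6 and F54D7.7, were lower in 4 of 4 under each treatment with TMM, and in 4, 2 and 4 of 4 with totals.

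Genes listed under ribosome biogenesis, among them ncl-1 and RNA exosome genes, had lower medians still. Of 42 ribosome biogenesis genes 40, 38 and 38 were called lower and 2, 4 and 3 higher with vha-6, vha-16 and vha-19 knockdown, with median log2 fold changes of -0.91, -1.01 and -1.05 with TMM and -0.47, -0.49 and -0.51 with library totals. On vha-6 RNAi the exosome gene exos-2 stood at 12.99 CPM, against 46.9 CPM in control (-1.85, SE 0.0589), and the GTPase gene nog-1 at 414 CPM, against 283 CPM (0.55, SE 0.0341). The 66 mitochondrial ribosomal protein genes, whose products form the separate ribosomes of mitochondria, were called lower in 65, 64 and 65 cases and higher in 0, with medians of -0.98, -1.24 and -1.24 with TMM and -0.53, -0.72 and -0.70 with totals. Under totals edgeR called 59, 60 and 61 of them lower and 1, 3 and 3 higher. It called 33, 33 and 32 of the biogenesis genes lower and 7, 6 and 5 higher. Of all genes tested, 32.8%, 31.8% and 31.7% were called lower with totals and 58.1%, 59.4% and 59.6% higher. The medians of both lists were below 0 under both scalings.

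Among the translation factors listed, the genes of 2 paralogue pairs, eef-1A and iff, also moved in opposite directions from control. Another dotted pair in the list, eef-1B.1 and eef-1B.2, is included only in the counts below. For elongation factor 1A, eef-1A.1, also known as glp-3 for its germline mutants, stood at 7959, 7860 and 7357 CPM with vha-6, vha-16 and vha-19 knockdown, against 12680 CPM in control, and eef-1A.2 at 1213, 1697 and 1517 CPM, against 874 CPM in control. The factor 5A gene iff-1, known for its role in the germline, stood at 256, 234 and 228 CPM, against 807 CPM in control, and iff-2, its somatic counterpart, at 408, 398 and 372.5 CPM, against 251 CPM in control. With totals each of these 4 genes kept its direction. Of the 8 factors in the list, 2 were higher under each treatment with TMM, and 6, 5 and 5 were lower with vha-6, vha-16 and vha-19 knockdown, at medians of -0.40, -0.51 and -0.54. With totals 4, 3 and 3 were higher and 3 lower under each treatment, at medians of 0.049, 0.0056 and -0.00075.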

How the data were processed

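RNA was measured in 12 libraries of 4 RNAi groups. The authors deposited raw, unscaled gene counts. Tools in the submitters' processing notes are edgeR 3.24.3 and STAR 2.73a, and the build there is WBcel235, also called ce11. Not given in the sources used here are the counting program, strand setting and filter. The 3 rows of unassigned reads were kept out of library sizes and tests.

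The analysis used edgeR 4.0.16 in R 4.3.3. After filterByExpr, 17043 genes were tested and 1424 removed. Libraries were scaled by TMM, and 1 quasi-likelihood model was fitted to all 12. The 6 contrasts were adjusted by Benjamini-Hochberg over all genes tested and called at 0.05. SEs are the log2 fold change over the root of F. Paralogue ratios used log2 of counts plus 0.5 and exact permutation tests over samples. RPKM used the TMM-scaled CPM and merged exon lengths of Ensembl release 115, the files' build, from which positions were also taken. The biological coefficient of variation was 2.99%. Replicates of a group differed by 1.49 to 2.81 times counting noise over all genes, so none was a copy of another. Over the members alone the same measure ran from 7.44 to 28.8. The scripts were tested on simulated data. Alternatives were other scalings, filters, limma-voom (limma 3.58.1), the DESeq2 1.42.0 Wald test, fits to the compared groups, the replicate number as a block, and leaving out each library.

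The text names the 5 highest and 5 lowest members of each comparison with control (3 between vha groups), called members against the majority, paralogues with a dotted suffix, and the 3 members of highest and lowest level. Also named after values were seen are rpl-10 and rps-20 with control, rps-8, genes of other lists, and those counted under library totals. Members, gene lists and tests were chosen with earlier results of these data known.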

Additional observations from a re-analysis of the deposited data

Results flagged for a closer look

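Some members responded differently to different targets, by edgeR's test of the difference between the treatments themselves at an adjusted p under 0.05. Between vha-6 and vha-16 RNAi these were rpl-24.2 (log2 fold change -0.50), rpl-10 (-0.29), rps-29 (-0.24), rps-18 (0.16) and rpl-42 (0.32). The rpl-42 call rests on few counts, and was lost with library totals and when some single libraries were left out. Between vha-6 and vha-19 RNAi they were rpl-24.2 (-0.32), rpl-10 (-0.17), rpl-7 (-0.10, a call lost with the upper quartile), rps-5 (0.22), rpl-4 (0.23) and rpl-7A (0.26). Between vha-16 and vha-19 RNAi they were rpl-25.1 (0.19), rpl-20 (0.20) and rps-29 (0.22). These are the called ones among the 3 highest and 3 lowest members of each comparison. With TMM the family as a whole was higher on vha-6 than on vha-19 RNAi, with 50 members higher and 4 lower (29% and 29.5% of all genes, median 0.097). Between vha-16 and vha-19 RNAi 56 were higher and 0 lower (9.81% and 7.56% of all genes, median 0.11). Values in both comparisons include this shift of the family.

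Outside the gene counts, reads in no annotated feature made up 0.995% of reads in the table on vha-6 RNAi, 1.30% on vha-16 RNAi and 1.27% on vha-19 RNAi, all above the 0.693% of control.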

How the results depend on the processing

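The calls against control of rpl-11.1, rpl-11.2, rpl-25.1, rpl-25.2, rpl-24.2, rps-18 and rps-24 held under every alternative that gave a value, and so did those of rps-23 on vha-6 and vha-19 RNAi and those of rpl-42, which the filter at a mean of 5 CPM removes. The family's medians moved. In the order vha-6, vha-16 and vha-19 knockdown against control, they were -0.015, 0.062 and -0.036 with library totals (21, 13 and 31 lower, 12, 36 and 11 higher), and -0.60, -0.65 and -0.75 with DESeq2 size factors and in the DESeq2 test. With the upper quartile they were -0.0062, -0.065 and -0.18 (19, 35 and 64 lower, 13, 8 and 6 higher). There 5554, 5879 and 5930 of the 17043 genes tested were lower and 9946, 9632 and 9620 higher. With totals without vitellogenins the members' medians were -0.12, -0.050 and -0.15 (60, 34 and 63 lower, 5, 10 and 6 higher). There 5999, 5820 and 5828 of all genes were lower and 9472, 9693 and 9731 higher. The members' medians were -0.26, -0.27 and -0.40 with the 5 CPM filter, and -0.39 for the first in the compared groups alone. Scaling on the members' own sum centres the family by construction and says nothing of its change. It gave -0.0052, 0.0064 and -0.011 (18, 24 and 27 lower, 15, 18 and 14 higher). With a library left out, 70 to 72 members were lower and 4 higher than control. Of all genes tested in those fits, 7032 to 7189 were lower and 7995 to 8171 higher.

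Between vha-6 and vha-16 RNAi, 41 were lower and 1 higher with totals (median -0.076), and 38 and 3 without vitellogenins (-0.070). The counts were 5 and 31 with DESeq2 size factors or its test (0.051), and 5 and 32 with the upper quartile (0.060). Of all genes, 6187 were lower and 4456 higher without vitellogenins. They were 4842 and 6127 with DESeq2 size factors, and 4499 and 5506 in its test. Between vha-6 and vha-19 RNAi, 11 members were lower and 18 higher with totals (0.00090), and 8 and 20 without vitellogenins (0.0078). There were 13 and 11 with the members' sum (-0.014), and 2 and 65 with the upper quartile (0.151). Of all genes, 6272 were lower and 3759 higher without vitellogenins, 6501 and 3438 with the members' sum, and 4420 and 5751 with the upper quartile. Between vha-16 and vha-19 RNAi, the members' sum, again by construction, gave 3 and 3 (0.0052). With a library left out, the first of these gave 5 to 14 lower, 11 to 27 higher and medians of -0.0085 to 0.035, and the last 18 to 46 higher. Without vitellogenins the family's share was 8.82% under vha-6 RNAi and 9.56% in control.

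Single genes turned above control, in the same order. With totals, rpl-7 stood at 0.20, 0.44 and 0.40, rpl-24.1 at 0.072, 0.17 and 0.093, rpl-3 at 0.086, 0.069 and 0.014, rpl-4 at 0.083 and 0.035, and rps-0 at 0.030 and 0.0023. With the upper quartile, rpl-7 stood at 0.21, 0.32 and 0.26, rpl-24.1 at 0.080 and 0.048, and rpl-3, rpl-4 and rps-0 at 0.094, 0.092 and 0.038 in the first. Without vitellogenins, rpl-7 stood at 0.094, 0.33 and 0.29 and rpl-24.1 at 0.062 in the second. With the members' sum, rpl-7 stood at 0.21, 0.39 and 0.42, rpl-24.1 at 0.082, 0.12 and 0.12, rpl-3 at 0.095, 0.013 and 0.039, and rpl-4 and rps-0 at 0.093 and 0.039 in the first. With the 5 CPM filter, rpl-7 stood at 0.11 and 0.038 in the last 2. On vha-6 RNAi, the rpl-37 call was also lost with the upper quartile (adjusted p = 0.115). Between vha-16 and vha-19 RNAi, rpl-27 was 0.023 and 0.0011 without the first vha-16 or the first vha-19 library, in a range of -0.066 to 0.023. The cause of these changes was not tested beyond the scaling itself.

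Replicate numbers did not pair the samples: same-numbered libraries had correlations of -0.084 to 0.092 between their deviations. With the replicate number as a block, 72 members were lower and 4 higher in each comparison with control. Of all genes, 7060, 7139 and 7200 were lower there and 8156, 8169 and 8106 higher. In the comparisons between vha groups 14, 48 and 53 members were higher, where 5307, 4923 and 1665 of all genes were. Counts of 18 to 117 limit rpl-42.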
